A study of Caenorhabditis elegans with 24 samples.

Results

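Genes for the making and removal of hydrogen sulfide and cysteine were followed in RNA-seq of *C. elegans* that met low oxygen in successive generations. There were 8 such genes, *sqrd-1*, *ethe-1*, *cbs-1*, *cbs-2*, *cth-1*, *cth-2*, *cdo-1* and *suox-1*, chosen by name as enzymes of sulfide oxidation, transsulfuration and cysteine breakdown, with earlier results of these data known. All 8 of 8 were found by identifier among the 46926 genes of the count table, and all 8 passed the filter on low counts at every exposure.

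Transsulfuration moves sulfur from homocysteine to cysteine. Cystathionine beta-synthase (*cbs-1* and *cbs-2*) joins homocysteine and serine, and cystathionine gamma-lyase (*cth-1* and *cth-2*) splits the product to give cysteine. Side reactions of these enzymes release hydrogen sulfide, a gas that poisons cytochrome c oxidase and so blocks respiration. Sulfide is removed in mitochondria by sulfide:quinone oxidoreductase (*sqrd-1*), which passes its electrons to the respiratory chain and its sulfur to a persulfide, and by the persulfide dioxygenase ETHE1 (*ethe-1*), which needs oxygen and makes sulfite. Cysteine itself is broken down by cysteine dioxygenase (*cdo-1*), which also needs oxygen, and the sulfite from both routes is oxidized to sulfate by sulfite oxidase (*suox-1*), an enzyme that carries the molybdenum cofactor. In *C. elegans* the hypoxia-inducible factor HIF-1 is known to raise several genes of these routes, *sqrd-1* and *cysl-2* among them, when the animals meet sulfide.

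Wild-type (N2) whole worms were kept on bacterial plates at 20 °C and, from the last larval stage (L4), either held at 0.1% oxygen for 16 hours (hypoxia) or left in normal air (normoxia). Part of each pellet was put back on plates to lay eggs, the progeny were treated in the same way, and this was done for 4 exposures, exposure 1 being that of the P0 generation. By the labels hypoxia worms went back to normal oxygen once the exposure ended, while the methods describe collection after the exposure without such a step, so any time at normal oxygen before collection is not known. Each exposure had 3 normoxia and 3 hypoxia libraries, 24 in all, and the number of an exposure cannot be told apart from the culture and the day it was grown on.

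The libraries held 26862487 to 46228496 counted reads, and a library had between 82 and 8893 reads on any one of the 8 genes. Levels are given as CPM, the usual share of a gene in the counted reads of a library (counts per 1e6), after TMM scaling over the 24 libraries. Changes are log2 fold changes of hypoxia against normoxia with their standard errors (SE) from edgeR, fitted on all genes of an exposure with at least 350 counts, and a gene was called changed at an adjusted p under 0.05. Because each exposure was scaled by itself for that test, a log2 fold change can depart slightly from the ratio of the mean CPM: in exposure 2 the median log2 fold change of all genes was -0.01 in its own fit and -0.13 in a fit of all 24 libraries. The labels give the tissue as L4, but markers of adults were present too: 7 oocyte and eggshell markers summed to 2748 to 7945 CPM and 6 vitellogenins to 18380 to 101300 CPM. None of the 45 markers of tissues and stages looked up was at 0 throughout a group.

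Over 12517 genes, 4 libraries stood apart from the other 2 of their group, with a mean distance in log2 CPM at least 1.5 times that between those 2. They were normoxia replicate 1 of exposure 1 (2.04 times), hypoxia replicate 2 of exposure 1 (2.78 times), normoxia replicate 2 of exposure 3 (1.78 times) and normoxia replicate 1 of exposure 4 (1.62 times). The same 4 libraries held the extreme values of several of the 8 genes, and values of them and of the related genes named later whose call changed, or which when called moved by over 1.5 times, without those of their exposure are given with and without them. The biological coefficient of variation was 0.235 in exposure 1, 0.101 in exposure 2, 0.160 in exposure 3 and 0.128 in exposure 4, so a change of a given size needed more to pass the test at exposure 1 than at exposure 2.

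Under hypoxia *cbs-1*, *cbs-2* and *sqrd-1* rose at all 4 exposures. *ethe-1* rose at exposures 2 and 3, and *cth-2*, *cdo-1* and *suox-1* were called at exposure 2 only. Of all genes tested, 73.5% were called in either direction at exposure 2, against 20.7%, 30.1% and 50.1% at exposures 1, 3 and 4. The share of all genes called at exposure 2 only was not counted. *cth-1* was the only one of the 8 genes to fall, at exposure 3. In numbers, 3 genes rose at exposure 1, where 13.3% of the 13171 genes tested rose. At exposure 2, 7 of 8 rose beside 37.2% of 13820 genes. At exposure 3, 4 rose beside 12.4% of 12934 genes and 1 fell beside 17.7%. At exposure 4, 3 rose beside 27.1% of 13448 genes, a share of the 8 not far from that of all genes. Rises at all 4 exposures were called in 3 of the 8, beside 4.45% of 12517 genes. None fell at exposures 1, 2 and 4, beside 7.4%, 36.3% and 23.0% of genes, by edgeR at an adjusted or at an unadjusted p under 0.05 (0 genes each) or by DESeq2 (0 genes each). The median log2 fold change of the 8 genes was 0.39, 1.27, 0.51 and 0.43 at exposures 1 to 4, beside medians of all genes tested of -0.02, -0.01, 0.03 and -0.00024.

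**Figure D1:**
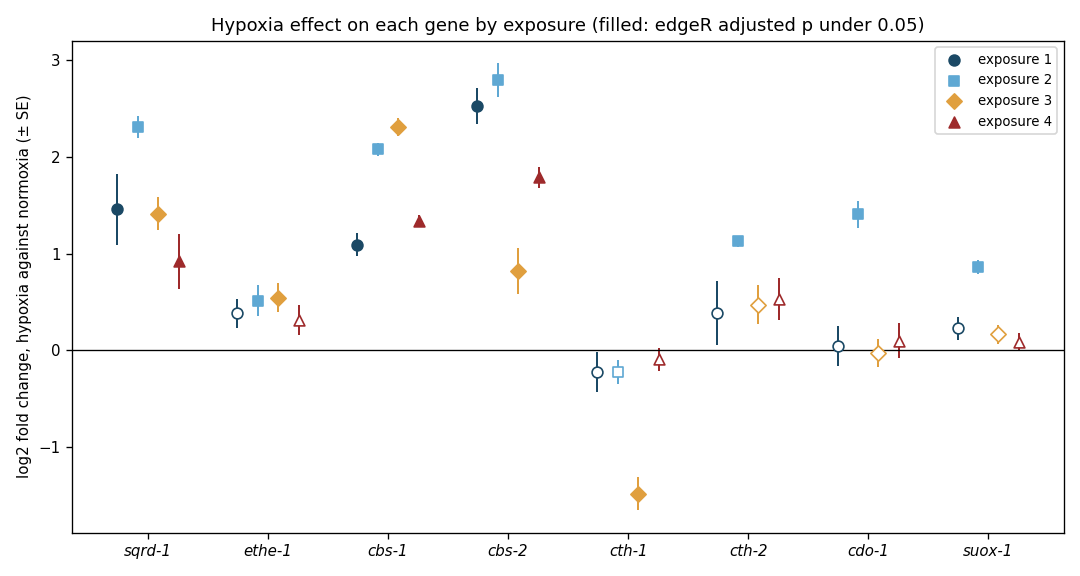
Log2 fold change of hypoxia against normoxia (y axis, with SE) for each of the 8 genes (x axis) at exposures 1 to 4 (symbols), filled where edgeR's adjusted p was under 0.05. Both *cbs* genes and *sqrd-1* are filled and above 0 at every exposure, while *cdo-1* reaches 1.41 at exposure 2 and lies between -0.03 and 0.10 at the other exposures.

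Of the genes that make cystathionine, *cbs-1* (WBGene00013866, X, 10054275 to 10057528, plus strand, WBcel235) gave the tightest measurements. At exposure 1 its levels were 35.9, 34.3 and 32.5 CPM in normoxia and 61.8, 78.5 and 76.2 CPM in hypoxia. At exposure 2 they were 33.4, 34.5 and 38.8 CPM in normoxia and 145, 138 and 135 CPM in hypoxia. No hypoxia library of the gene overlapped a normoxia library at any exposure. At exposure 3 the 3 normoxia libraries held 29.1, 32.6 and 29.9 CPM and the 3 hypoxia libraries 158, 136 and 160 CPM, and at exposure 4 they held 36.2, 36.4 and 37.2 CPM and 92.6, 90.2 and 103 CPM. Normoxia was thus level, at 29.1 to 38.8 CPM over 12 libraries, while every hypoxia library of exposures 2 and 3 was above those of exposure 4, and these above those of exposure 1. The log2 fold changes were 1.09 (SE 0.117, adjusted p = 0.00113), 2.08 (SE 0.0673, adjusted p = 3.73e-09), 2.31 (SE 0.0917, adjusted p = 1.04e-05) and 1.34 (SE 0.0599, adjusted p = 5.14e-06). No other annotated gene overlaps *cbs-1*, and its call held at each exposure in all alternatives tried.

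**Figure D2:**
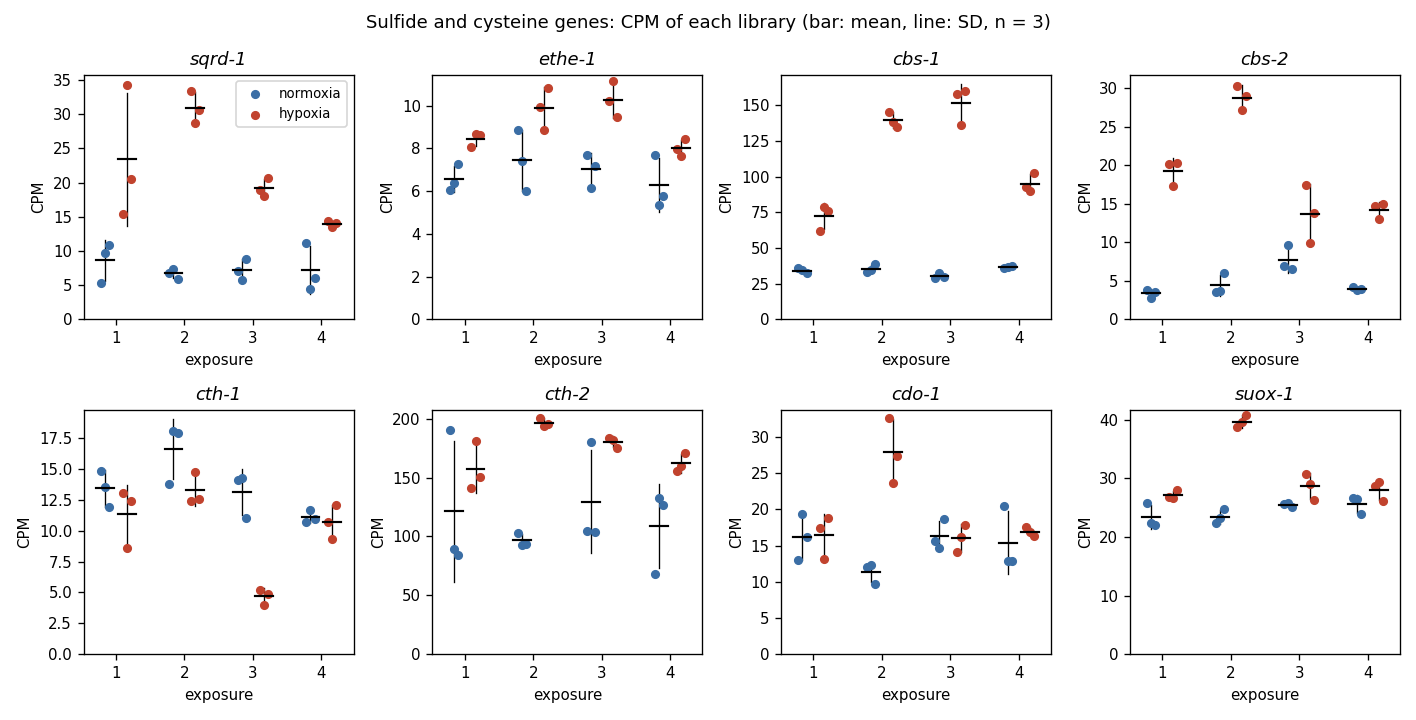
CPM (y axis) of each of the 8 genes in each library by exposure (x axis), normoxia in blue and hypoxia in red, with the mean of each group as a bar and the SD as a line (n = 3). The hypoxia points of *cbs-1*, *cbs-2* and *sqrd-1* lie above the normoxia points at all 4 exposures, and the normoxia points of *cth-2* are spread from 67.9 to 190 CPM.

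The second gene of that step, *cbs-2* (WBGene00018783, II, 2220396 to 2223567, minus strand), was much lower in normoxia and rose more at exposure 1. Its levels at exposure 1 were 3.82, 2.81 and 3.55 CPM in normoxia and 20.2, 17.4 and 20.3 CPM in hypoxia. At exposure 2 they were 3.57, 3.72 and 5.99 CPM in normoxia and 30.3, 27.2 and 29.0 CPM in hypoxia. At both exposures every hypoxia library was well above every normoxia library. At exposure 3 the normoxia libraries held 6.98, 9.73 and 6.58 CPM, above all normoxia libraries of the other exposures, and the hypoxia libraries 17.5, 9.87 and 13.8 CPM, so that the lowest hypoxia library lay just above the highest normoxia library. At exposure 4 the levels were 4.18, 3.84 and 4.02 CPM in normoxia and 14.7, 13.03 and 15.03 CPM in hypoxia. Its log2 fold changes were 2.53 (SE 0.186, adjusted p = 0.000582), 2.80 (SE 0.173, adjusted p = 2.6e-07), 0.82 (SE 0.238, adjusted p = 0.0333) and 1.79 (SE 0.108, adjusted p = 1.3e-05). The call at exposure 3 was lost with any one of 4 libraries left out (adjusted p = 0.114 without normoxia replicate 1, 0.109 without normoxia replicate 3, 0.11 without hypoxia replicate 1 and 0.0832 without hypoxia replicate 3). A non-coding gene on the opposite strand, F54A3.10, shares 30 of its 2084 exonic bases.

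Markers of sperm moved with *cbs-2*. The 7 markers (4 *msp* genes for the major sperm protein, the surface protein gene *spe-9* and the sperm phosphatase genes *gsp-3* and *gsp-4*) summed to 147 to 170 CPM in normoxia and 332 to 402 CPM in hypoxia at exposure 1, and to 160 to 208 CPM and 339 to 382 CPM at exposure 2. At exposure 3 their sum was high in normoxia too, 339 to 362 CPM, against 283 to 443 CPM in hypoxia, and at exposure 4 it was 99.9 to 127 CPM against 194 to 219 CPM. *spe-9* was tested at exposure 2 only, and 6 of 6, 7 of 7, 0 of 6 and 6 of 6 markers tested rose at exposures 1 to 4. None of the 7 was at 0 in any group, and reads of the near-identical *msp* genes may be shared among them. The exposure at which *cbs-2* rose least was the one at which the markers did not rise, and both had their highest normoxia level there. In pellets of whole worms, more cells of a type and more RNA per cell cannot be told apart, and the part of sperm in the level of *cbs-2* was not tested. For *cbs-1* the rise at exposure 3, where 0 of the 6 markers tested were called, was as large as at exposure 2. The part of sperm in the level of *cbs-1* was not tested either.

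**Figure D3:**
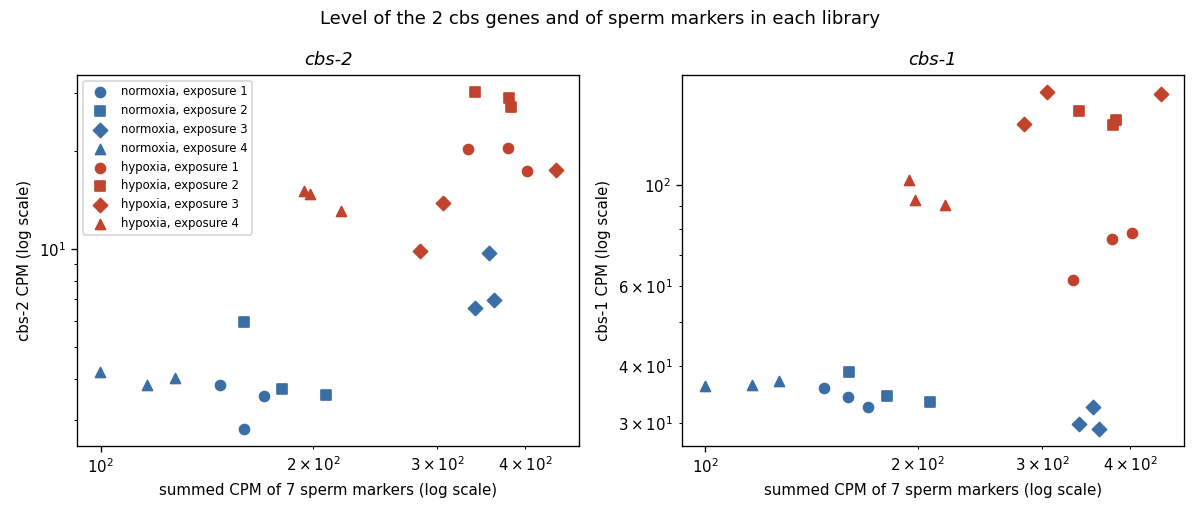
CPM of *cbs-2* (left) and of *cbs-1* (right) against the summed CPM of 7 sperm markers, 1 point per library on log axes, normoxia in blue and hypoxia in red, with a symbol for each exposure. The normoxia libraries of exposure 3 (blue diamonds) hold 339 to 362 CPM of sperm markers, and there *cbs-2* is at 6.58 to 9.73 CPM while *cbs-1* is at 29.1 to 32.6 CPM.

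Of the genes that remove sulfide, *sqrd-1* (WBGene00008538, IV, 14219871 to 14224440, plus strand) rose at every exposure. At exposure 1 it held 5.30, 9.72 and 10.9 CPM in normoxia and 15.4, 34.2 and 20.6 CPM in hypoxia. At exposure 2 the levels were 6.79, 7.44 and 5.96 CPM in normoxia and 33.4, 28.7 and 30.6 CPM in hypoxia. Exposure 2 had the narrowest normoxia group and the highest mean in hypoxia, 30.9 ± 2.34 CPM (SD, n = 3). At exposure 3 the normoxia libraries held 7.04, 5.73 and 8.87 CPM and the hypoxia libraries 18.9, 18.1 and 20.7 CPM. At exposure 4 they held 11.2, 4.49 and 6.01 CPM and 14.3, 13.6 and 14.1 CPM. The groups did not overlap at any exposure, and every hypoxia library of exposure 2 was above those of exposure 3, and these above those of exposure 4. In log2 fold change these were 1.46 (SE 0.364, adjusted p = 0.0324), 2.31 (SE 0.113, adjusted p = 5.28e-08), 1.41 (SE 0.173, adjusted p = 0.000836) and 0.92 (SE 0.288, adjusted p = 0.0281).

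The calls of *sqrd-1* at exposures 1 and 4 were lost with most single libraries left out. Its log2 fold change stayed at 1.1 to 1.69 and at 0.67 to 1.38. Under the omissions that lost the call, 11.3% to 17.7% of all genes were called at exposure 1, in place of 20.7%. At exposure 4, 38.6% to 43.4% were called, in place of 50.1%. At exposure 1 the call was lost without normoxia replicate 1 (adjusted p = 0.0696), 2 (0.0969) or 3 (0.0606) or hypoxia replicate 3 (0.0847). With both libraries of exposure 1 that stood apart left out together, an alternative added after the data were seen, the log2 fold change was 0.86 (SE 0.167, adjusted p = 0.00267). At exposure 4 the call was lost without normoxia replicate 2 (adjusted p = 0.0565) or 3 (0.103) or any one of hypoxia replicates 1 (0.0784), 2 (0.0678) and 3 (0.075), whereas without normoxia replicate 1, the library that stood apart, the log2 fold change was 1.38 (SE 0.137, adjusted p = 5.29e-06). There are 23 short piRNA genes within the span of *sqrd-1*.

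The levels of *ethe-1* (WBGene00007886, IV, 9506936 to 9508761, minus strand) moved little. Over the 4 exposures its log2 fold changes were 0.38 (SE 0.149, adjusted p = 0.117), 0.52 (SE 0.159, adjusted p = 0.0134), 0.55 (SE 0.147, adjusted p = 0.0251) and 0.32 (SE 0.153, adjusted p = 0.117). Hypoxia and normoxia did not overlap at exposures 1 (6.08 to 7.27 CPM in normoxia, 8.07 to 8.69 CPM in hypoxia) and 3 (6.16 to 7.71 CPM, 9.46 to 11.1 CPM). They overlapped at exposures 2 (6.02 to 8.87 CPM, 8.85 to 10.8 CPM) and 4 (5.34 to 7.71 CPM, 7.64 to 8.43 CPM). The estimates at the 4 exposures are thus close to each other, and which of them were called changed with single libraries left out. The call at exposure 2 was lost without hypoxia replicate 3 (adjusted p = 0.0542), and that at exposure 3 without normoxia replicate 2 (0.0597) or 3 (0.0671) or hypoxia replicate 1 (0.0626) or 2 (0.09). At exposure 4 the gene was called once normoxia replicate 1 was left out, with a log2 fold change of 0.49 (SE 0.130, adjusted p = 0.00693). A short piRNA gene on the same strand, 21ur-14079, shares 21 of its 834 exonic bases. That gene held 1289 counts over the 24 libraries, beside 6563 for *ethe-1*, and its part in the level of *ethe-1* was not tested.

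The cystathionine gamma-lyase genes did not move together. *cth-1* (WBGene00009048, V, 16100680 to 16102750, plus strand) held 14.1, 14.3 and 11.01 CPM in normoxia and 5.23, 4.01 and 4.88 CPM in hypoxia at exposure 3, with no overlap, a log2 fold change of -1.48 (SE 0.170, adjusted p = 0.000654). At the other exposures its hypoxia and normoxia libraries overlapped: 11.9 to 14.8 CPM in normoxia and 8.62 to 13.05 CPM in hypoxia at exposure 1, 13.8 to 18.1 CPM and 12.4 to 14.7 CPM at exposure 2, and 10.7 to 11.7 CPM and 9.30 to 12.1 CPM at exposure 4. The log2 fold changes there were -0.22 (SE 0.209, adjusted p = 0.486), -0.22 (SE 0.128, adjusted p = 0.14) and -0.09 (SE 0.117, adjusted p = 0.539). Without normoxia replicate 1 of exposure 2, the value of that exposure was -0.35 (SE 0.113, adjusted p = 0.0173). Molting markers moved with the fall: the 6 markers summed to 324 to 415 CPM in normoxia and 57.3 to 109 CPM in hypoxia at exposure 3, where all 6 fell. They also fell at exposure 1 (3 of 6, from 464 to 536 CPM in normoxia to 103 to 238 CPM in hypoxia) and exposure 4 (6 of 6, from 526 to 585 CPM to 259 to 302 CPM), where *cth-1* was not called. At exposure 2, where *cth-1* was not called with all libraries, 3 markers rose and 3 fell. Their sum there was lower in hypoxia (446 to 489 CPM) than in normoxia (558 to 607 CPM). The part of these markers in the fall of *cth-1* was not tested.

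The other gamma-lyase gene, *cth-2* (WBGene00022856, II, 7056184 to 7057960, minus strand), was the most abundant of the 8 genes. At exposure 2 it held 103, 93.0 and 94.0 CPM in normoxia and 201, 194 and 196 CPM in hypoxia, with no overlap and a log2 fold change of 1.13 (SE 0.0580, adjusted p = 7.24e-08). At exposure 1 the normoxia libraries held 190, 89.4 and 84.5 CPM and the hypoxia libraries 142, 181 and 150 CPM, and at exposure 3 the normoxia libraries held 105, 180 and 104 CPM and the hypoxia libraries 184, 182 and 175 CPM. At each of these exposures 1 normoxia library was at the hypoxia level and the other 2 were far below it. At exposure 4 the levels were 67.9, 132 and 127 CPM in normoxia and 155, 160 and 171 CPM in hypoxia, with no overlap. The log2 fold changes of exposures 1, 3 and 4 were 0.39 (SE 0.328, adjusted p = 0.437), 0.47 (SE 0.201, adjusted p = 0.111) and 0.53 (SE 0.214, adjusted p = 0.0677). Each of these calls turned on the normoxia library that stood apart. Without normoxia replicate 1 of exposure 1 the value was 0.91 (SE 0.143, adjusted p = 0.0094), without normoxia replicate 2 of exposure 3 it was 0.78 (SE 0.0738, adjusted p = 0.000139), and without normoxia replicate 1 of exposure 4 it was 0.29 (SE 0.0526, adjusted p = 0.000645). At exposure 4 the gene was also called without normoxia replicate 2 (adjusted p = 0.0375). ZK1127.3 on the opposite strand shares 8 of its 1328 exonic bases.

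Of the genes that break down cysteine, *cdo-1* (WBGene00018986, X, 862267 to 863578, minus strand) was changed at exposure 2 only. There it held 12.0, 12.3 and 9.76 CPM in normoxia and 32.6, 23.6 and 27.4 CPM in hypoxia, with no overlap and a log2 fold change of 1.41 (SE 0.140, adjusted p = 7.48e-06). At the other exposures normoxia held 13.03 to 19.4, 14.7 to 18.6 and 12.9 to 20.4 CPM and hypoxia 13.1 to 18.8, 14.1 to 17.9 and 16.3 to 17.6 CPM, and the groups overlapped each time. Log2 fold changes there were 0.04 (SE 0.208, adjusted p = 0.901), -0.03 (SE 0.142, adjusted p = 0.91) and 0.10 (SE 0.177, adjusted p = 0.656). Normoxia libraries of exposure 2 were lower than every other library of the gene. Without normoxia replicate 1 of exposure 4 the value of that exposure was 0.36 (SE 0.0971, adjusted p = 0.00792). *cdo-1* shares 127 of its 793 exonic bases (16.0%) with F56F10.2 on the opposite strand, and F56F10.2 changed likewise, by 0.83 (SE 0.165, adjusted p = 0.00101) at exposure 2 and by -0.07, -0.13 and 0.11 at exposures 1, 3 and 4. Whether reads were assigned by strand is not stated, so counts of these 2 genes may be shared, and the part of F56F10.2 in the level of *cdo-1* was not tested.

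The last step, sulfite oxidase (*suox-1*, WBGene00010397, X, 15497555 to 15500281, plus strand), was likewise called at exposure 2 only. Its levels there were 22.3, 23.2 and 24.7 CPM in normoxia and 38.7, 39.6 and 40.7 CPM in hypoxia, a log2 fold change of 0.86 (SE 0.0717, adjusted p = 2.12e-06). At exposures 1 and 3 hypoxia (26.6 to 27.9 and 26.3 to 30.7 CPM) also lay above normoxia (22.0 to 25.8 and 25.1 to 25.8 CPM) without overlap, but by little. At exposure 4 the groups overlapped (23.9 to 26.6 CPM in normoxia, 26.0 to 29.4 CPM in hypoxia). The log2 fold changes there were 0.23 (SE 0.117, adjusted p = 0.211), 0.17 (SE 0.0942, adjusted p = 0.219) and 0.09 (SE 0.0834, adjusted p = 0.384). In the fit of all 24 libraries together the gene was called at exposure 1 (adjusted p = 0.0322). Its neighbour on the opposite strand, *tbh-1*, shares 26 of its 2004 exonic bases and moved the other way, by -1.60 (SE 0.116, adjusted p = 7.74e-07) at exposure 2.

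Counted by overlap alone, hypoxia lay above normoxia without overlap in 5, 6, 5 and 4 of the 8 genes at exposures 1 to 4, where 20.0%, 34.4%, 23.9% and 33.8% of all genes tested did so. It lay below without overlap in 1 gene at exposure 3, where 23.4% did so, and in none at exposures 1, 2 and 4, where 20.8%, 44.0% and 25.3% did so. The smallest exact p that the order of 3 libraries against 3 allows is 0.1. Markers of body wall muscle moved with the calls of exposure 2: the 4 markers summed to 3088 to 3828 CPM in normoxia and 7219 to 7366 CPM in hypoxia, and all 4 rose. None was called at the other exposures, but their sum was higher in hypoxia without overlap at exposure 1 (3379 to 3605 CPM, 4117 to 4465 CPM). So it was at exposure 3 (3022 to 3899 CPM, 3990 to 4510 CPM). The sum of 5 intestine markers rose at exposure 2 too (4505 to 5805 CPM, 6973 to 7135 CPM), with 3 of them called up and 2 down. It was higher without overlap at exposure 4 as well (2791 to 3402 CPM, 3885 to 4140 CPM), with 2 called up and 1 down. Oocyte and eggshell markers fell at exposure 2 (7 of 7, from 5555 to 6100 CPM in normoxia to 2748 to 3525 CPM in hypoxia). They also fell at exposure 4 (5 of 7, from 7367 to 7945 CPM to 6160 to 6280 CPM). At exposures 1 and 3, 2 of the 7 were called down. The part of any of these markers in the rise of *cth-2*, *cdo-1* and *suox-1* was not tested.

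Whether the response itself differed between exposures was tested in 1 fit of the 24 libraries, as a difference of log2 fold changes. Between exposures 1 and 2 the log2 fold change of 3 genes was higher at exposure 2, beside 13.4% of 12517 genes, and of 0 genes lower, beside 21.4%. These were *cdo-1* (by 1.28, SE 0.266, adjusted p = 0.00121), *cbs-1* (by 0.90, SE 0.122, adjusted p = 3.63e-05) and *suox-1* (by 0.55, SE 0.109, adjusted p = 0.000851), while the median difference of all genes was -0.15. Between exposures 2 and 3 the log2 fold change of 4 genes was lower at exposure 3, beside 25.1% of genes, and of 1 gene higher, beside 32.0%. The 4 were *cbs-2* (by -1.87, SE 0.283, adjusted p = 2.15e-05), *cdo-1* (by -1.32, SE 0.266, adjusted p = 0.000334), *cth-1* (by -1.15, SE 0.228, adjusted p = 0.00029) and *suox-1* (by -0.59, SE 0.109, adjusted p = 0.000148), and the gene with a higher value was *cbs-1* (by 0.34, SE 0.122, adjusted p = 0.024). For *cbs-2*, *cdo-1* and *suox-1* the lower value is a smaller rise, and for *cth-1* it is a deeper fall. The call of *cbs-1* was lost in about as many alternatives as it was kept, 17 of 32, DESeq2 among them. Both comparisons share the libraries of exposure 2.

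Between exposures 1 and 4 none of the 8 responses differed, beside 4.06% of genes (edgeR, adjusted p = 0.179 to 0.991). At an unadjusted p under 0.05 there were 2, *cbs-1* and *cbs-2*, and DESeq2 called 0. The errors of these differences were large for genes with spread normoxia libraries: for *sqrd-1* the difference was -0.48 (SE 0.421) and for *cth-2* 0.20 (SE 0.371). Over all 4 exposures together the response differed in 5 genes, beside 68.2% of genes: *cbs-1* (adjusted p = 6.55e-07), *cbs-2* (6.38e-05), *cth-1* (0.000126), *suox-1* (0.00017) and *cdo-1* (0.000648). *sqrd-1* (0.0779), *cth-2* (0.375) and *ethe-1* (0.803) were not called.

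These tests moved when all 4 libraries that stood apart were left out, an alternative added after the data were seen, which narrows the spread of the groups by construction. At exposure 1 the genes that rose were then 5, beside 28.1% of 12237 genes, with *cth-2* (0.80, SE 0.0760, adjusted p = 5.41e-05) and *suox-1* (0.35, SE 0.101, adjusted p = 0.0179) added. The response was then larger at exposure 2 than at exposure 1 in 5 genes, beside 17.8% of 12517, with *sqrd-1* (by 1.46, SE 0.213, adjusted p = 4.4e-05) and *cth-2* (by 0.34, SE 0.0833, adjusted p = 0.00392) added. Both also had a smaller response at exposure 3 than at exposure 2 (*sqrd-1* by -1.06, SE 0.203, adjusted p = 0.000261; *cth-2* by -0.37, SE 0.0786, adjusted p = 0.000679), and *cbs-1* was no longer called there (0.26, SE 0.131, adjusted p = 0.0982). From exposure 1 to exposure 4 the response of *cth-2* was then smaller by -0.53 (SE 0.0869, adjusted p = 0.000631), where with all libraries the difference was 0.20 and not called, and 16.9% of genes were called.

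Levels within each condition were compared among exposures in the same fit. Hypoxia levels differed among exposures in 6 genes, beside 78.5% of 12517 genes, in *cbs-1* (adjusted p = 2.55e-08), *cth-1* (2.14e-06), *suox-1* (7.37e-06), *cbs-2* (0.000139), *cdo-1* (0.00116) and *sqrd-1* (0.0111). Normoxia levels differed in 2, beside 54% of genes, in *cbs-2* (adjusted p = 0.000301) and *cth-1* (0.0284). With the 4 libraries left out, normoxia levels differed in 6 genes, beside 68.4%, with *cth-2* (adjusted p = 1.42e-06), *sqrd-1* (0.000678), *cdo-1* (0.00139) and *cbs-1* (0.0325) added. In neither test was the share of the 8 genes above that of all genes when all libraries were used.

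Per kilobase of exon, which allows genes to be compared, *cth-2* stood far above the rest. In normoxia its mean was 86.0 ± 28.2 CPM per kilobase (SD over 12 libraries), higher than 88.6% of genes. The other 7 followed as *cdo-1* (18.7 ± 4.17), *cbs-1* (14.9 ± 1.26), *suox-1* (12.2 ± 0.828), *cth-1* (10.5 ± 1.95), *ethe-1* (8.18 ± 1.23), *sqrd-1* (4.49 ± 1.34) and *cbs-2* (2.35 ± 0.966), the last higher than 9.01% of genes. Of neighbours in this order, *cdo-1* and *cbs-1*, *suox-1* and *cth-1*, *cth-1* and *ethe-1*, and *sqrd-1* and *cbs-2* differed by less than the sum of their SDs. In hypoxia *cth-2* was at 131 ± 14.3 and *cbs-1* at 49.9 ± 15.1 CPM per kilobase, followed by *cdo-1* (24.4 ± 7.22), *suox-1* (15.4 ± 2.75), *sqrd-1* (13.2 ± 4.67), *ethe-1* (10.98 ± 1.39), *cbs-2* (9.13 ± 3.18) and *cth-1* (7.72 ± 2.77). *cbs-1* thereby went from above 46.9% to above 79.2% of genes, and *cth-1* from the fifth place to the last. From *cdo-1* down, each neighbour in hypoxia differed from the next by less than the sum of their SDs, which here include the differences between exposures.

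The ratio between the genes of a pair shifted with oxygen. Per kilobase, *cbs-2* was 0.109, 0.136, 0.278 and 0.121 of *cbs-1* in normoxia and 0.299, 0.227, 0.0990 and 0.165 in hypoxia at exposures 1 to 4 (means of 3 libraries). The share of *cbs-2* was thus higher under hypoxia at exposures 1, 2 and 4 and lower at exposure 3, and the 2 groups did not overlap at any exposure. *cth-2* exceeded *cth-1* by 8.63, 5.82, 9.59 and 9.53 times in normoxia and by 14.3, 14.6, 37.9 and 14.9 times in hypoxia. Hypoxia and normoxia overlapped for this ratio at exposure 1 (6.45 to 12.5 against 10.6 to 20.5) and were apart at the other exposures.

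**Figure D4:**
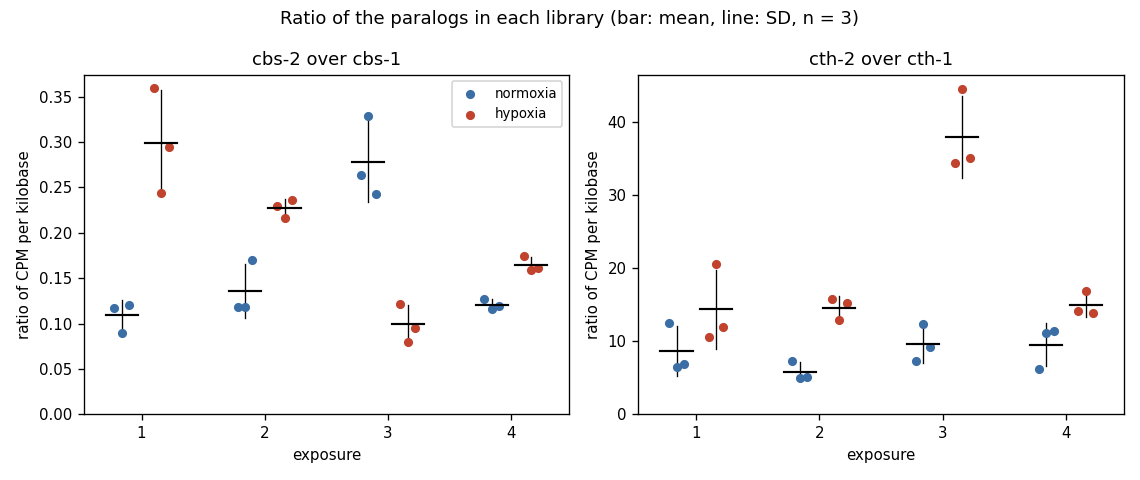
Ratio of CPM per kilobase of *cbs-2* to *cbs-1* (left) and of *cth-2* to *cth-1* (right) in each library (y axis) by exposure (x axis), normoxia in blue and hypoxia in red, with the mean as a bar and the SD as a line (n = 3). The *cbs* ratio is above normoxia in hypoxia at exposures 1, 2 and 4 and below it at exposure 3, where the *cth* ratio reaches 34.3 to 44.4.

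Within the normoxia groups, *sqrd-1* and *cth-2* were extreme in the same library and in opposite directions. In normoxia replicate 1 of exposure 1, *cth-2* was at 190 CPM against 89.4 and 84.5 CPM, and *sqrd-1* at 5.30 CPM against 9.72 and 10.9 CPM. In normoxia replicate 2 of exposure 3, *cth-2* was at 180 CPM against 105 and 104 CPM, and *sqrd-1* at 5.73 CPM against 7.04 and 8.87 CPM. In normoxia replicate 1 of exposure 4 the directions were the other way round, with *cth-2* at 67.9 CPM against 132 and 127 CPM and *sqrd-1* at 11.2 CPM against 4.49 and 6.01 CPM. *ethe-1* and *cdo-1* were the lowest of their group in the first pair of these libraries and the highest in the last, as *sqrd-1* was. The same held for *cysl-2*, a sulfide- and cyanide-handling cysteine synthase relative and well-known HIF-1 target, at 45.8 CPM against 107 and 127 CPM, at 32.4 CPM against 106 and 76.5 CPM, and at 151 CPM against 49.0 and 45.5 CPM.

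Of the homocysteine list, *sams-1* and *cbl-1*, picked after their values were seen, went with *cth-2*. *sams-1*, whose product makes S-adenosylmethionine, was at 459 CPM against 152 and 134 CPM, at 588 CPM against 220 and 195 CPM, and at 271 CPM against 582 and 534 CPM in the same 3 libraries. *cbl-1*, of the cystathionine lyase family, was at 21.8 CPM against 10.7 and 6.62 CPM, at 15.8 CPM against 7.34 and 8.20 CPM, and at 7.37 CPM against 17.5 and 16.9 CPM. Its log2 fold changes were 0.0019, 1.33, 1.02 and -0.04 at exposures 1 to 4 (adjusted p = 0.998, 1.31e-06, 0.0265 and 0.916). Without normoxia replicate 1 of exposure 4 the value of that exposure was -0.34 (SE 0.0996, adjusted p = 0.012). In exposure 2 the highest normoxia library exceeded the lowest by 1.11 to 1.3 times for *cth-2*, *cbl-1*, *sqrd-1*, *cdo-1*, *sams-1* and *cysl-2*, but by 1.47 times for *ethe-1*. Over all genes, the highest of 3 normoxia libraries exceeded the lowest by a median of 1.24, 1.16, 1.19 and 1.17 times at exposures 1 to 4, whereas for *sqrd-1* it did so by 2.06, 1.25, 1.55 and 2.50 times and for *cth-2* by 2.25, 1.11, 1.74 and 1.95 times. *cbs-1* did so by at most 1.16 times. These libraries stood apart over all genes as well, and the labels name nothing in which they differ from their group.

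**Figure D5:**
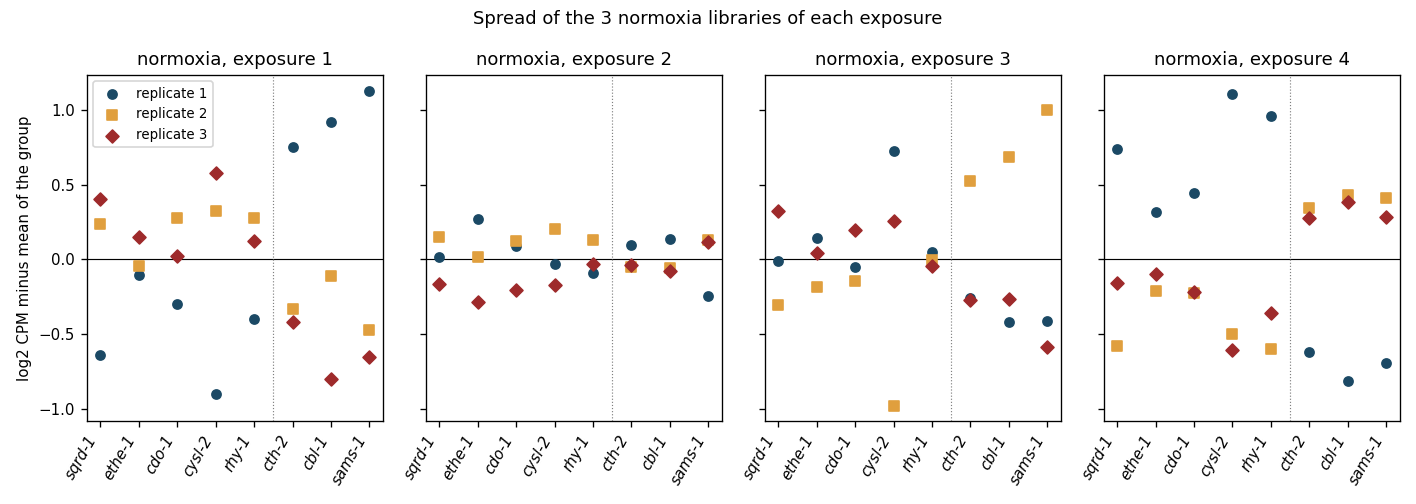
Log2 CPM of 8 genes in each normoxia library minus the mean of its group (y axis), by gene (x axis), with a panel for each exposure and a colour for each replicate. In exposures 1, 3 and 4, 1 library lies apart for *cth-2* and *sams-1*. In it *cbl-1* lies on the same side of 0, and *sqrd-1*, *cdo-1* and *cysl-2* on the other. Another library deviates about as far for *sqrd-1* (0.32) and *cdo-1* (0.20) at exposure 3, and for *cdo-1* (0.28) and *cbl-1* (-0.80) at exposure 1. The libraries of exposure 2 lie between -0.29 and 0.27.

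Of 6 lists of related genes, 28 genes were tested besides the 8. In these lists 3 genes rose and 1 fell at exposure 1, 13 rose and 5 fell at exposure 2, 4 rose and 5 fell at exposure 3, and 6 rose and 11 fell at exposure 4. Of all genes tested, 13.3%, 37.2%, 12.4% and 27.1% rose and 7.4%, 36.3%, 17.7% and 23.0% fell, so that of 28 genes the counts were near those shares at exposures 3 and, for rises, 1 and 4. Without the libraries that stood apart in each exposure, 7 of 27 rose and 9 fell at exposure 1 (28.1% and 24.2% of all genes). In the same way 4 of 28 rose and 6 fell at exposure 3 (12.5% and 17.8% of all genes). At exposure 4, 6 of 28 rose and 12 fell (30.3% and 26.1% of all genes). The cysteine synthase-like genes *cysl-1* to *cysl-4* held 1, 4, 1 and 3 rises over the 4 exposures, with list medians of 0.63, 1.66, 0.57 and 0.74. *cysl-2* rose by 3.14 (SE 0.0986, adjusted p = 2.98e-09) at exposure 2, from 42.4 to 55.1 CPM in normoxia to 373 to 422 CPM in hypoxia. It also rose by 1.59 (adjusted p = 0.0117) and 1.25 (adjusted p = 0.0342) at exposures 3 and 4, and was at 0.91 (SE 0.342, adjusted p = 0.109) at exposure 1. Without the libraries that stood apart it was 0.52 (adjusted p = 0.0053) at exposure 1, 1.24 (adjusted p = 0.000362) at exposure 3 and 2.04 (adjusted p = 2.89e-10) at exposure 4. *cysl-1*, whose product binds EGL-9 and holds it off HIF-1, rose by 0.57 (adjusted p = 0.000472) at exposure 2 and 0.22 (adjusted p = 0.0368) at exposure 4. *cysl-3* rose by 0.38 (adjusted p = 0.00331) at exposure 2 and fell by 0.26 (adjusted p = 0.00931) at exposure 4. Both were called at exposure 1 too without the libraries that stood apart, *cysl-1* at 0.46 (adjusted p = 0.00369) and *cysl-3* at -0.83 (adjusted p = 0.000154).

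*cysl-4* behaved like *cbs-2*, at 0.547 to 1.91 CPM in normoxia and with log2 fold changes of 2.33 (SE 0.252, adjusted p = 0.00117), 2.76 (SE 0.189, adjusted p = 5.32e-07), 0.84 (SE 0.314, adjusted p = 0.079) and 2.11 (SE 0.192, adjusted p = 7.64e-05). Without the libraries that stood apart *cysl-4* had too few counts to be tested at exposure 1. *mpst-4* did likewise, a 3-mercaptopyruvate sulfurtransferase gene and the only gene of the other 4 lists called in the same direction at all 4 exposures, with 2.37, 2.96, 0.60 and 1.58 (adjusted p = 0.000582, 6.45e-08, 0.048 and 6.97e-05). Both moved with the sperm markers as *cbs-2* did, and the part of sperm in their levels was not tested. The sulfurtransferase gene *mpst-3*, named here after its values were seen, fell at exposures 1 to 3, with log2 fold changes of -0.53, -0.41 and -0.85 (adjusted p = 0.0296, 0.00787 and 0.00134).

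Among the genes that control HIF-1, *hif-1* itself rose at exposure 4 only (0.47, SE 0.0629, adjusted p = 0.000489), being at 0.15, -0.06 and -0.03 at exposures 1 to 3, though it was called at exposure 1 (0.20, adjusted p = 0.0393) without the libraries that stood apart. *egl-9*, the prolyl hydroxylase that marks HIF-1 for breakdown and is itself a HIF-1 target, rose at exposure 2 (0.76, SE 0.0928, adjusted p = 3.25e-05) and was at 0.50 (adjusted p = 0.0549), 0.27 and -0.13 at the other exposures. At exposure 1 it came to 0.33 (adjusted p = 0.0316) without those libraries. *vhl-1*, which directs that breakdown, was called at no exposure (-0.27 to 0.11). *rhy-1*, a membrane protein that holds HIF-1 in check, rose by 0.38 (SE 0.0998, adjusted p = 0.00589) at exposure 2 and fell by 1.60 (SE 0.373, adjusted p = 0.00808) at exposure 4, where its normoxia libraries held 60.5, 20.6 and 24.3 CPM and its hypoxia libraries 12.2, 11.1 and 12.3 CPM. At exposure 1 its hypoxia libraries held 6.31, 34.3 and 10.4 CPM against 24.3, 38.7 and 34.9 CPM in normoxia, and the high one is the library that stood apart and that had the highest *sqrd-1*. The value of *rhy-1* was -0.93 (adjusted p = 0.295) at exposure 1 with all libraries and -2.08 (SE 0.205, adjusted p = 6.58e-05) without the libraries that stood apart, and at exposure 4 it was -0.95 (SE 0.104, adjusted p = 1.14e-05) without normoxia replicate 1.

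The remaining lists are given by their counts, to be read beside the shares of all genes above. Of 5 molybdenum cofactor genes, whose product *suox-1* needs, 1 rose and 1 fell at exposure 2 and 1 fell at exposure 4. Of the 2 genes of glutathione synthesis, which uses cysteine, 1 fell at exposure 4. Of 9 genes that supply or use homocysteine, 1, 4, 1 and 1 rose and 0, 3, 4 and 6 fell at exposures 1 to 4, with list medians of -0.11, 0.02, -0.36 and -0.56 beside medians of all genes of -0.02, -0.01, 0.03 and -0.00024. The 6 that fell at exposure 4 stand beside 23.0% of all genes and the 4 at exposure 3 beside 17.7%. Without the libraries that stood apart, 4, 5 and 7 of the 9 fell at exposures 1, 3 and 4, beside 24.2%, 17.8% and 26.1% of all genes.

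Over the 24 libraries, the genes whose log2 CPM ran most like that of each gene were named by Pearson's r, as a description over libraries that share their groups. For *sqrd-1* these were Y53G8B.2 (r = 0.956) and *ttc-36* (r = 0.95), for *ethe-1* T28F4.5 (r = 0.902) and F58A6.1 (r = 0.888), and for *cbs-1* *trhr-1* and Y105C5B.9 (r = 0.969 each). For *cth-1* they were *bre-1* (r = 0.939) and *hum-6* (r = 0.929), for *cth-2* C35A11.4 (r = 0.93) and C05C9.3 (r = 0.899), and for *suox-1* Y37E11B.7 (r = 0.93) and *rla-0* (r = 0.927). *cbs-2* ran with C34D4.2 (r = 0.99) and C18E9.8 (r = 0.986), and 600 genes exceeded an r of 0.9 with it, compared with 70 for *cbs-1* and 54 for *sqrd-1*. For *cdo-1* the nearest gene was its overlapping neighbour F56F10.2 (r = 0.903), followed by *nlp-31* (r = 0.879).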

How the data were processed

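The 24 libraries were grouped by the labels into normoxia and hypoxia at 4 exposures, 3 biological replicates each. Per the labels and methods, the authors selected poly(A) RNA, built directional NEXTFLEX libraries, trimmed the reads (CutAdapt 4.0), aligned them with bowtie2, which does not splice reads, and counted them on WS235 genes with FeatureCounts. Use of strand in the counting is not given in the sources used here. The deposited table holds raw counts per gene without normalization, with a column for each library. Tables of the authors' DESeq2 log2 fold changes and p-values were not used.

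Totals were 26862487 to 46228496 counts (median 33517710), of which 0.431 to 17.4% lay on 22 ribosomal RNA genes. Names, coordinates and exon lengths came from WBcel235 (Ensembl). edgeR 4.0.16 in R 4.3.3 (glmQLFit, glmQLFTest, TMM) was run on all genes with at least 350 counts over the 6 libraries of an exposure, with Benjamini-Hochberg adjustment and a threshold of 0.05. Differences between exposures came from 1 fit of all libraries on the 12517 genes that passed at every exposure. SE is the log2 fold change divided by the root of F. Correlations used log2 CPM with a prior count of 2. The script was tested on simulated data.

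The 8 genes and the lists were chosen with earlier results of these data known. Named besides the 8 were all genes of the cysteine synthase-like and HIF-1 control lists, of each other list the 2 with the largest mean change called alike at all 4 exposures, and the 2 genes nearest to each by r. Other names are given as chosen after their values were seen. Of 33 list genes, 29 matched the table and 28 were tested. Alternatives were DESeq2 1.42.0, RLE and upper-quartile scaling, no filter, at least 10 counts in every library, no ribosomal RNA genes, 1 fit of 24 libraries, a block for replicate number, and the omission of each library in turn and, added after seeing the data, the 4 farthest libraries left out together. A search of promoters for HIF-1 motifs was not run, since no promoter sequence was used here.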

Additional observations from a re-analysis of the deposited data

Results flagged for a closer look

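In all, 8 differences of response between successive exposures passed the test of the difference itself and are set out by the size of the change in log2 fold change. They came from 3 of the 8 genes between exposures 1 and 2, beside 34.8% of 12517 genes. Between exposures 2 and 3 they came from 5 of the 8, beside 57.1%, so both shares were near those of all genes. From exposure 1 to exposure 2 the response of *cdo-1* grew by 1.28, that of *cbs-1* by 0.90 and that of *suox-1* by 0.55. From exposure 2 to exposure 3 the response of *cbs-2* changed by -1.87, that of *cdo-1* by -1.32, that of *cth-1* by -1.15, that of *suox-1* by -0.59 and that of *cbs-1* by 0.34, which for *cth-1* was a deeper fall. All of these comparisons share the 6 libraries of exposure 2, whose replicates were the closest together. For *cdo-1* and *suox-1* the response was thus larger at exposure 2 than at exposures 1 and 3. The difference of *cbs-1* between exposures 3 and 2 was lost in 17 of 32 alternatives, with adjusted p from 0.00897 to 0.344 over the 32.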

How the results depend on the processing

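Of 304 counts recomputed under the alternatives, 291 stayed within 1.5 times the value given, and of 1976 values of single genes 1838 kept their direction and their side of the threshold. Leaving out the 4 farthest libraries together gave 5 genes in place of 3 that rose at exposure 1, 5 in place of 3 whose response differed between exposures 1 and 2, 1 in place of 0 between exposures 1 and 4, and 6 in place of 2 whose normoxia level differed. DESeq2 gave 4 genes whose normoxia level differed, beside 62.4% of all genes. With single libraries left out, the counts of rises ranged from 2 to 3 at exposure 1, 6 to 7 at exposure 2, 2 to 4 at exposure 3 and 2 to 6 at exposure 4, the counts of falls from 0 to 1 at exposure 2, and the count of differing normoxia levels from 1 to 4. The 2 at exposure 1 came without normoxia replicate 2 (9.23% of all genes rose) or 3 (10.8%) or hypoxia replicate 3 (8.32%). The 6 at exposure 2 came without hypoxia replicate 3 (34.8% of all genes rose). The 2 at exposure 3 came without normoxia replicate 3 (8.42% of all genes rose) or hypoxia replicate 1 (7.99%). The 2 at exposure 4 came without normoxia replicate 3 (23.8% of all genes rose) or hypoxia replicate 1 (23.5%), 2 (22.1%) or 3 (22.4%). The 6 at exposure 4 came without normoxia replicate 1 (30.3% of all genes rose). The fall at exposure 2 (*cth-1*) came without normoxia replicate 1 (35.8% of all genes fell). A single differing normoxia level came without normoxia replicate 2 or 3 of exposure 2 or normoxia replicate 3 of exposure 4. Of 12517 genes, 5771, 5461 and 5879 differed there. The 4 came without hypoxia replicate 2 of exposure 1 (8518 of 12517 genes). The cause was not tested. With upper-quartile scaling *cbs-2* was not called at exposure 3 (adjusted p = 0.055), and with no filter *cth-2* was called at exposures 3 (0.0057) and 4 (1.68e-05).

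Values that changed sign were all of genes not called with all libraries. Without the 4 libraries they were *cth-1* at exposure 1 (0.051) and, as differences of response, *ethe-1* between exposures 3 and 2 (-0.084) and *sqrd-1* (0.51), *ethe-1* (0.14), *cth-1* (-0.18) and *cth-2* (-0.53) between exposures 4 and 1. The difference of *cth-1* between exposures 2 and 1 was 0.012 with at least 10 counts in every library, and that of *ethe-1* between exposures 3 and 2 was -0.035 with upper-quartile scaling. With single libraries left out, *cth-1* ranged from -0.17 to 0.0074 at exposure 4, and *cdo-1* from -0.066 to 0.20, -0.15 to 0.073 and -0.0089 to 0.36 at exposures 1, 3 and 4. Differences between exposures 2 and 1 ranged from -0.088 to 0.19 (*ethe-1*) and -0.20 to 0.025 (*cth-1*), that of *ethe-1* between exposures 3 and 2 from -0.0085 to 0.27, and those between exposures 4 and 1 from -0.19 to 0.17 (*ethe-1*), -0.068 to 0.30 (*cth-1*), -0.28 to 0.40 (*cth-2*) and -0.12 to 0.38 (*cdo-1*).

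Replicate numbers did not clearly pair the libraries: of 12 same-numbered pairs, 2 had a correlation of deviations above 0.1 (range -0.306 to 0.303), and 5 of 12 normoxia libraries matched best the hypoxia library of their number. These 5 were all of exposures 3 and 4, where the correlations of same-numbered pairs were low but positive (0.034 to 0.157). With the replicate block, *cbs-2* was not called at exposure 3 (adjusted p = 0.066) and *cth-2* was called at exposure 4 (0.0271), so that 3 and 4 genes rose there. *cbs-1* was not called between exposures 3 and 2 (0.0691), *sqrd-1* was called among the 4 exposures (0.0379), and *ethe-1* between exposures 4 and 1 came to 0.0040. With 3 libraries a group, one of which stood apart in 4 of 8 groups, changes as small as those of *ethe-1* could not be placed firmly on either side of the threshold.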

Other observations

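Genes of the methionine cycle, which feeds homocysteine to transsulfuration, are given here by their values. They were chosen after their values were seen. *ahcy-1*, whose product frees homocysteine from S-adenosylhomocysteine, held 734 to 847 CPM in normoxia and 2183 to 2388 CPM in hypoxia at exposure 2, a log2 fold change of 1.62 (SE 0.0756, adjusted p = 3.73e-08), and was at 0.07, -0.14 and 0.04 at exposures 1, 3 and 4, none of them called. Like *cdo-1* and *suox-1*, it was called at exposure 2 only, where 73.5% of all genes were called. *metr-1*, the methionine synthase that turns homocysteine back into methionine, fell at exposures 2, 3 and 4, with log2 fold changes of -0.42, -0.62 and -0.62 (adjusted p = 0.000327, 0.0171 and 0.000171), and was called at exposure 1 (-0.31, adjusted p = 0.0112) without the libraries that stood apart. *sams-1* fell at exposures 3 and 4, with log2 fold changes of -1.94 and -1.01 (adjusted p = 0.00859 and 0.00966) and rose at exposure 2 by 0.51 (adjusted p = 0.000538). At exposure 1 it was not called, at -0.96 with all libraries and at 0.18 without those that stood apart. At exposure 3 the normoxia library of *sams-1* that stood apart was the highest of its group, and without it the value was -1.25 (adjusted p = 0.00022). At exposure 4 it was the lowest, and without it the value was -1.28 (adjusted p = 9.79e-08). *sams-5*, of the homocysteine list, rose by 1.32, 0.35 and 1.10 at exposures 1, 2 and 4 (adjusted p = 0.00504, 0.0047 and 0.00106). At exposure 3 *sams-5* was at -0.44 (adjusted p = 0.0881), and at -0.59 (adjusted p = 0.0191) without the library that stood apart.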
